A study of Mus musculus with 300 samples.

Results

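The kidney response to GW501516, a synthetic agonist of the nuclear receptor PPAR delta, was measured on 15 arrays of treated mice and 30 arrays of vehicle-dosed mice, which together made up 45 of the 300 arrays of the series. The arrays were chosen by their labels, with no use of measured values. Mice were dosed orally for 4, 8 or 15 days, with 5 mice a day given GW501516 at 10 mg/kg and 10 mice a day given vehicle. Each array held total RNA from the kidney of 1 mouse. At the same dose of 10 mg/kg, 2 further agonists were given to 5 mice a day, WY14643 for PPAR alpha and rosiglitazone for PPAR gamma, and their 30 kidney arrays entered the fit and a direct comparison of compounds. Strain, sex, age, the make-up of the vehicle and the hour of tissue collection are not given in the sources used here.

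PPARs are lipid-sensing transcription factors that pair with the retinoid X receptor and bind direct repeats of a hexamer in front of their target genes. Their best known targets encode enzymes that take up, activate and burn fatty acids in mitochondria and peroxisomes. The proximal tubule, the most abundant segment of the kidney cortex, draws most of its energy from fatty acid oxidation, and PPAR delta is expressed along the nephron.

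The arrays carried the markers of the labelled tissue. The mean level of 11 measured proximal tubule markers lay between 11.33 and 12.17 on the log2 scale in GW501516 arrays and between 12.02 and 12.22 in vehicle arrays. GW501516 day 8 replicate 1 stood apart from every other kidney array. Its interquartile range over all genes was 3.81, against 4.40 to 4.70 in the other kidney arrays, and its median correlation with the other arrays of its group was 0.891, against at least 0.982 elsewhere. It was also the array with the proximal tubule mean of 11.33. Its marker means were the lowest for endothelium (6.52, next lowest 7.85), podocytes (6.09, next 7.52) and thick ascending limb (8.11, next 9.12). Those of distal convoluted tubule (9.75, next 10.01) and intercalated cells (7.85, next 7.89) were lowest too. Thin limb, principal cell, stroma and macrophage means lay within the range of the other kidney arrays. Counts and named genes were therefore computed with and without it. Values are robust multi-array (RMA) log2 signals deposited by the authors, so a difference of 1 is a 2-fold change, and a gene was called when its limma adjusted p was under 0.05 over 18193 genes.

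Averaged over the 3 days, 1236 of 18193 genes differed between GW501516 and vehicle kidneys, 717 higher and 519 lower, which is 6.79% of the genes tested (3.94% higher, 2.85% lower). Most differences were small, since 38 of the called genes were at least 1.5-fold higher and 15 at least 1.5-fold lower. The median difference over all genes was 0.01 on the log2 scale. Without the array that stood apart, 819 genes were higher (4.5%) and 526 lower (2.89%), 7.39% in all, and 829 genes were called in the same direction both times. The 10 largest rises among genes that lay above the same-day vehicle mean on at least 14 of 15 GW501516 arrays belonged to Cyp4a14, Atp12a, Acot1, Angptl4, Acot3, Nkain1, Cyp27b1, Nt5dc2, Pdk4 and Mgll.

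Cyp4a14, a cytochrome P450 that hydroxylates the far end of fatty acids, rose the most. Its log2 levels were 11.04, 9.70, 10.05, 11.52 and 9.43 in GW501516 kidneys on day 4, 10.40, 10.92, 11.05, 10.56 and 9.53 on day 8 and 9.69, 11.39, 11.03, 11.33 and 11.75 on day 15. Vehicle kidneys spanned 5.72 to 9.11 with a median of 6.97 on day 4, 5.26 to 9.12 with a median of 6.67 on day 8 and 5.79 to 8.04 with a median of 6.41 on day 15. All 15 treated arrays lay above all 30 vehicle arrays. The mean difference was 3.78 ± 0.27 (SE), a 13.7-fold rise (adjusted p = 1.43e-17).

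Atp12a, the catalytic subunit of the non-gastric proton-potassium pump, came next and is not a gene of fatty acid metabolism. It read 5.74, 5.02, 5.80, 6.22 and 5.30 in GW501516 kidneys on day 4, 5.14, 4.61, 5.88, 6.50 and 5.63 on day 8 and 4.31, 6.24, 6.27, 6.39 and 5.86 on day 15. Vehicle kidneys spanned 2.73 to 4.50 with a median of 3.32 on day 4, 3.20 to 4.52 with a median of 4.08 on day 8 and 3.15 to 4.44 with a median of 3.91 on day 15. The groups overlapped only at the lower end, where day 15 replicate 1 at 4.31 fell among the vehicle values. The mean difference was 1.88 ± 0.20 (adjusted p = 6.77e-11), a 3.67-fold rise, and every GW501516 array was above its same-day vehicle mean. Atp12a was dim, with a mean kidney level below percentile 40 of the genes, so the fit without dim genes did not hold it.

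Angptl4, a secreted inhibitor of lipoprotein lipase, averaged 10.16 ± 0.24 in GW501516 kidneys on day 4, 10.09 ± 0.32 on day 8 and 10.44 ± 0.38 on day 15 (SD, n = 5 each). Vehicle kidneys averaged 8.72 ± 0.51, 8.47 ± 0.50 and 8.85 ± 0.49 on the same days (SD, n = 10 each). The lowest treated array stood at 9.87 and the highest vehicle array at 9.85, so the groups did not overlap. The difference of 1.55 ± 0.14 was the mean of 1.44 on day 4, 1.61 on day 8 and 1.59 on day 15.

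The cytosolic acyl-CoA thioesterase Acot1, which frees fatty acids from coenzyme A, had levels of 9.80, 9.41, 9.39, 9.21 and 9.24 in GW501516 kidneys on day 4, 10.85, 9.56, 9.86, 9.62 and 9.74 on day 8 and 9.64, 9.79, 9.76, 10.49 and 9.88 on day 15. Vehicle kidneys spanned 7.11 to 9.05 with a median of 7.85 on day 4, 7.55 to 9.12 with a median of 8.15 on day 8 and 7.47 to 8.76 with a median of 7.98 on day 15. All treated arrays were above all vehicle arrays, and the rise was 1.68 ± 0.16 (adjusted p = 4.45e-13). The highest treated value, 10.85, came from the array that stood apart, and the rise without it was 1.60.

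Nkain1, whose product binds the sodium-potassium pump, averaged 8.34 ± 0.22, 8.23 ± 0.26 and 8.72 ± 0.24 in GW501516 kidneys on days 4, 8 and 15, against 7.34 ± 0.46, 7.07 ± 0.45 and 7.10 ± 0.32 in vehicle kidneys (SD). Its rise was 1.26 ± 0.11, and all 4 other probe sets of the gene were called in the same direction. Cyp27b1, the renal enzyme that makes active vitamin D, averaged 7.10 ± 0.38, 7.01 ± 0.95 and 7.60 ± 0.40 in GW501516 kidneys, against 6.54 ± 0.79, 5.55 ± 0.52 and 6.13 ± 0.48 in vehicle kidneys. The groups overlapped on days 4 and 8, where the lowest treated arrays read 6.57 and 5.74, and the mean rise was 1.16 ± 0.20 (adjusted p = 2.41e-05).

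**Figure D1:**
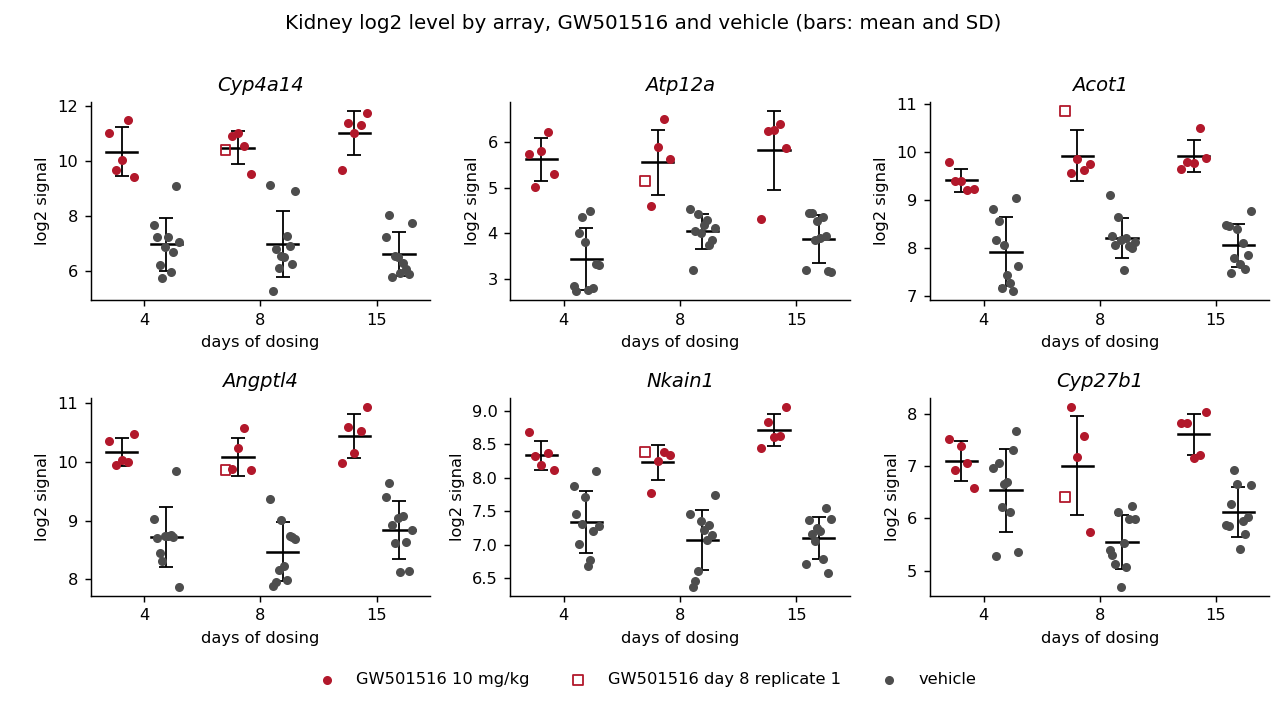
Log2 signal of 6 of the genes that rose most, by days of dosing, with 1 point per array (GW501516 left of vehicle within each day, bars for mean and SD). The open square is GW501516 day 8 replicate 1, and for Cyp4a14, Acot1 and Angptl4 every treated point lies above every vehicle point.

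Among the other large rises, Pdk4, the kinase that shuts down pyruvate dehydrogenase and so spares glucose, rose by 0.91 ± 0.14, with 1.26 on day 4, 0.78 on day 8 and 0.68 on day 15. Mgll, the lipase of monoacylglycerols, rose by 0.87 ± 0.06 with the smallest adjusted p of the named genes (5.66e-18). Its treated arrays spanned 9.97 to 10.99, and its vehicle arrays 9.32 to 10.22. Acot3, a peroxisomal thioesterase, rose by 1.49 ± 0.19 and Nt5dc2 by 1.02 ± 0.08. All 10 rises were called without the array that stood apart, and no leave-out of 1 array ended any of them. Cyp27b1 alone lost its call with clock gene components as covariates and without that array (adjusted p = 0.0785).

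The panel of known PPAR targets moved in 1 direction. Of its 34 measured genes, 24 were called higher and none lower, against 3.94% of all genes higher, and the median difference over the 34 was 0.33 on the log2 scale against 0.01 over all genes. Without the array that stood apart 25 were higher (4.5% of all genes). The panel was assembled from known PPAR biology with earlier results of these arrays in view, so the count describes the panel and is no independent evidence of its direction.

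Within the panel, the carnitine shuttle that carries fatty acids into mitochondria rose. Cpt1a, its rate-limiting entry enzyme, rose by 0.35 ± 0.04, the carnitine-acylcarnitine carrier Slc25a20 by 0.53 ± 0.05 and the plasma membrane carnitine transporter Slc22a5 by 0.40 ± 0.05. These are changes of 1.5-fold or less, yet each was seen on at least 14 of 15 treated arrays. Cpt1a levels averaged 11.09 in GW501516 kidneys and 10.75 in vehicle kidneys.

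Most enzymes of the oxidation spiral rose as well. In mitochondria, the thiolase Acaa2 rose by 0.58 ± 0.08, the long-chain dehydrogenase Acadl by 0.33 ± 0.05, the very-long-chain dehydrogenase Acadvl by 0.18 ± 0.04, and the 2 subunits of the trifunctional protein, Hadha and Hadhb, by 0.20 ± 0.05 and 0.19 ± 0.04. The medium-chain dehydrogenase Acadm was not called, at -0.03 ± 0.03 (adjusted p = 0.689). In peroxisomes, the thiolase Acaa1b rose by 0.76 ± 0.06, the bifunctional enzyme Ehhadh by 0.33 ± 0.05, and Pex11a, which drives peroxisome division, by 0.38 ± 0.05. The thioesterases Acot2 of mitochondria and Acot4 of peroxisomes rose by 0.55 ± 0.07 and 0.44 ± 0.09.

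Further panel members with a rise were Cyp4a31, another fatty acid hydroxylase (0.76 ± 0.12), the pantetheinase Vnn1 (0.76 ± 0.08), the lipid droplet coat protein Plin2 (0.31 ± 0.05), the acyltransferase Mogat1 (0.19 ± 0.04) and the liver and gut transcription factor Creb3l3 (0.27 ± 0.08). Vnn1 treated arrays spanned 11.39 to 11.98 and vehicle arrays 10.38 to 11.54. Cyp4a31 shares much sequence with other Cyp4a genes, so its value is uncertain. Some of these calls depended on the fit. Creb3l3 lost its call in 5 of 14 alternatives, among them the fit to GW501516 and vehicle arrays alone (limma adjusted p = 0.0614), and Mogat1 in 4 of 14, among them days 4 and 15 alone (limma adjusted p = 0.0682). Plin2 and Acot4 lost theirs with clock gene components as covariates, with all arrays (limma adjusted p = 0.285 and 0.121) and without the array that stood apart (0.148 and 0.093).

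Fabp1, the liver-type fatty acid binding protein, had the panel's largest difference after Cyp4a14 and its largest SE. Its levels were 5.23, 7.86, 8.01, 5.64 and 9.01 in GW501516 kidneys on day 4, 5.28, 11.09, 6.44, 6.35 and 8.95 on day 8 and 7.73, 11.74, 6.11, 6.17 and 9.03 on day 15. Vehicle kidneys spanned 4.24 to 7.02 with a median of 5.05 on day 4, 3.96 to 7.93 with a median of 6.32 on day 8 and 3.29 to 9.01 with a median of 5.75 on day 15. The groups overlapped on each day, and 12 of 15 treated arrays lay above their vehicle mean. The rise was 1.69 ± 0.50 (adjusted p = 0.0276), and the call ended when any 1 of 4 treated arrays was left out, with adjusted p of 0.0832 without day 15 replicate 2, 0.0546 without day 15 replicate 5, 0.0574 without day 4 replicate 5 and 0.0607 without day 8 replicate 2. Fabp1 is also abundant in hepatocytes, and 7 other hepatocyte markers had a mean level of 4.98 to 7.25 in GW501516 kidneys and 5.01 to 7.07 in vehicle kidneys, with a median difference of 0.29 and none called. By day the median difference of these markers was 1.02 on day 4, 0.01 on day 8 and -0.04 on day 15. Their part in the Fabp1 difference was not tested.

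The 9 other panel genes were not called. Cd36, the fatty acid translocase, differed by -0.10 ± 0.06, lipoprotein lipase Lpl by -0.09 ± 0.06, Fabp3 by 0.02 ± 0.05, Fabp4 by 0.20 ± 0.13, Ucp3 by 0.22 ± 0.08, Txnip by 0.16 ± 0.08, Cidec by 0.25 ± 0.38 and the hormone Fgf21 by 0.06 ± 0.12. Ucp3 gained a call when the values were quantile normalized again, and without GW501516 day 8 replicate 2 or replicate 3. Slc27a1, a fatty acid transport protein, turned on 1 array. GW501516 day 8 replicate 1 read 5.51 against 9.05 to 9.91 on the other 14 treated arrays and 8.48 to 9.20 in vehicle kidneys. Its difference was 0.16 ± 0.15 with that array and 0.41 without it (adjusted p = 0.59 and 0.000227).

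**Figure D2:**
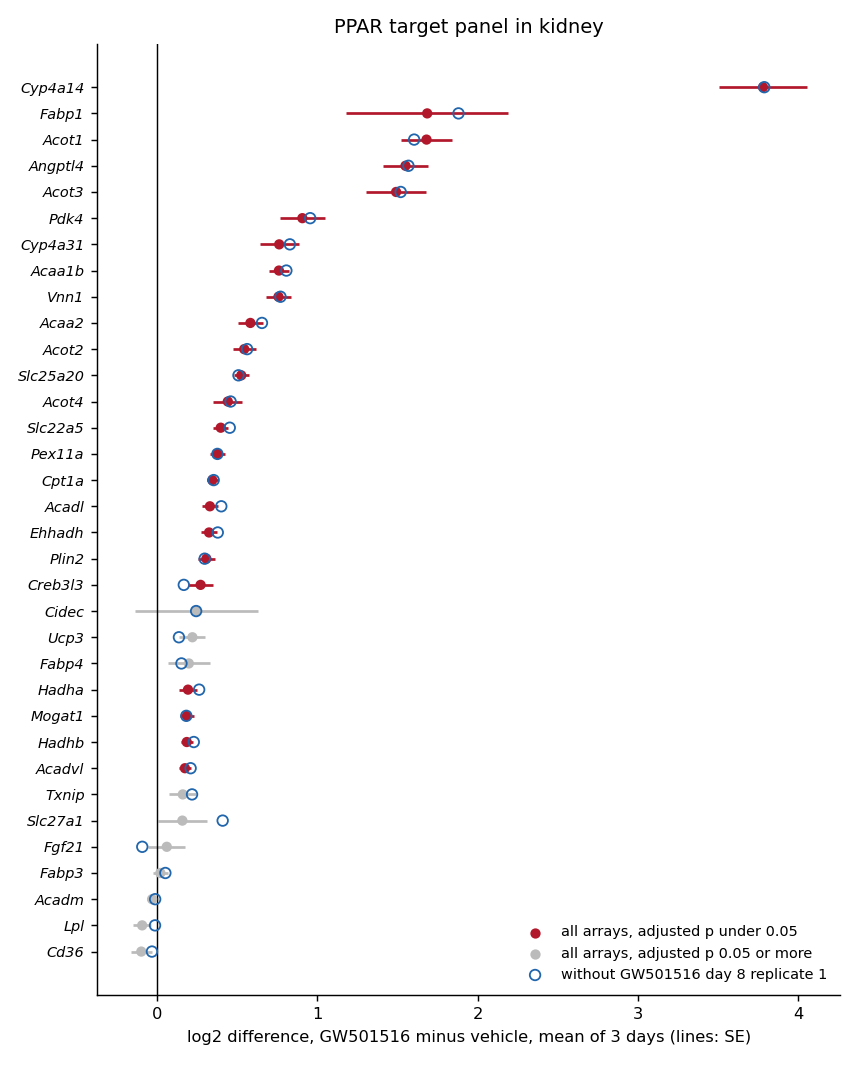
Log2 difference between GW501516 and vehicle kidneys for the 34 measured PPAR panel genes, averaged over 3 days, with SE as lines. Red points were called with all arrays, grey points were not, and open blue circles give the value without GW501516 day 8 replicate 1. The 24 called genes run from 0.18 (Acadvl) to 3.78 (Cyp4a14), and Slc27a1 shows the largest gap between both fits.

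The windows upstream of panel genes were searched for the PPAR direct repeat, which is the hexamer AGGTCA, any 1 base (N) and AGGTCA again, on either strand. RefSeq windows of 250 bases before the gene start on build GRCm38.p6 were at hand for 19 of the 24 called genes. At up to 2 mismatches, 5 of the 19 genes held it in at least 1 of their 21 windows (Fabp1, Acot4, Plin2, Mogat1 and Creb3l3). Over all 32851 windows the rate was 3.24%, counted by window and not by gene. The same 5 were the panel genes that lost their call with clock gene components as covariates and all arrays. Without the array that stood apart Creb3l3 kept its call in that fit. A link between the repeat and these calls was not tested. A match describes letters and not a bound site. The 3 windows below are shown because Fabp1 had the closest match, at 1 mismatch, and Acot4 and Plin2 stand for a thioesterase and a droplet protein of the panel, each at 2 mismatches. Each runs 5′ to 3′ on the gene's strand and ends at the base before the gene start, with the matched bases in capitals. They lie at chr6:71199629-71199878 on the plus strand for Fabp1, chr12:84038129-84038378 on the plus strand for Acot4 and chr4:86670060-86670309 on the minus strand for Plin2.
Fabp1: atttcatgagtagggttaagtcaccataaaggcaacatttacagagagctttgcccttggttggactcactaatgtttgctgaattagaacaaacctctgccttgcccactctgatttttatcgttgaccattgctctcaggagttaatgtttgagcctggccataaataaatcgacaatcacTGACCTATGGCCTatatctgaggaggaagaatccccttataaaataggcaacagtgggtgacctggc
Acot4: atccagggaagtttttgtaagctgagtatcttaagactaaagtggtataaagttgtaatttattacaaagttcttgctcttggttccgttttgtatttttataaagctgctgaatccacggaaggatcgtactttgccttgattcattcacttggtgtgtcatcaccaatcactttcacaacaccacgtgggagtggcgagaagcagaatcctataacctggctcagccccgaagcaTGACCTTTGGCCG
Plin2: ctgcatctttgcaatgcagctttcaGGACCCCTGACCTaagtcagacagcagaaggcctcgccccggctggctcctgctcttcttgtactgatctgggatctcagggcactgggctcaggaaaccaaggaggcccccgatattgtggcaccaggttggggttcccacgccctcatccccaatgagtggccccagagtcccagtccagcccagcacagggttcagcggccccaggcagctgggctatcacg
In all 3 windows the repeat reads on the strand opposite to the gene. The match ends 54 bases before the Fabp1 start, directly at the Acot4 start and 212 bases before the Plin2 start.

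Beyond the panel, the wider lists of fat metabolism also held rises. Counts of these lists are read against the 3.94% of all genes higher and 2.85% lower (4.5% and 2.89% without the array that stood apart). Among 27 measured genes of mitochondrial fatty acid oxidation, 16 rose and none fell, with a median difference of 0.19. The largest was Eci1, the isomerase for unsaturated fatty acids, at 0.80 ± 0.07. Its treated arrays spanned 10.63 to 11.35 and its vehicle arrays 9.84 to 10.87. Cpt2, the inner membrane partner of Cpt1a, rose by 0.56 ± 0.06. Among 45 genes of peroxisomal oxidation and biogenesis, 18 rose, 1 fell and the median was 0.12. Eci2 rose by 0.46 ± 0.04, and the gene that fell was Mpv17l, at -0.22 ± 0.07, which was not called without the array that stood apart (adjusted p = 0.0866).

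Genes of the lipid droplet and of lipolysis rose in 11 of 27 cases with none lower and a median of 0.13, and in 14 cases without the array that stood apart. Over all genes, 3.94% were higher (4.5% without that array). Besides Mgll, the list held Plin5, a droplet coat protein that tethers mitochondria, at 0.68 ± 0.09, G0s2, an inhibitor of the lipase Pnpla2, at 0.66 ± 0.12, and hormone-sensitive lipase Lipe at 0.61 ± 0.10. Cidea had a difference of 0.79 ± 0.65 that was not called. Adipocyte markers varied in both groups, with a mean level of 6 markers from 3.76 to 7.82 in GW501516 kidneys and 3.58 to 7.16 in vehicle kidneys, a median difference of 0.65, and 1 of 6 called (Lipe). By day the median difference of these markers was 0.98 on day 4, 0.52 on day 8 and -0.26 on day 15. Adipoq and Ucp1, which define fat cells, had differences of 0.74 ± 0.74 and 0.69 ± 0.61 and were not called. The part of attached fat in the droplet genes was not tested. In bulk tissue fewer cells of a type and less RNA per cell cannot be told apart.

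Uptake genes moved little outside the panel. The share over all genes was 3.94% higher and 2.85% lower (4.5% and 2.89% without the array that stood apart). Of 22 genes of fatty acid and lipoprotein uptake 3 rose (4 without the array that stood apart), namely Fabp1, Angptl4 and Acsl3, a long-chain acyl-CoA synthetase (0.74 ± 0.08), and Fabp5 was not called at 0.26 ± 0.10. Among 17 genes around pyruvate dehydrogenase 2 rose and 1 fell, against 4 and 1 without the array that stood apart. The gene that fell was Arrdc4, an arrestin-like relative of Txnip, at -0.80 ± 0.17, with 0.01 on day 4, -1.52 on day 8 and -0.90 on day 15. Without the array that stood apart its mean difference was -0.51.

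Sterol and fatty acid synthesis showed a few small rises. Among all genes, 3.94% were higher and 2.85% lower (4.5% and 2.89% without the array that stood apart). In cholesterol synthesis 7 of 20 genes rose and 1 fell, with a median of 0.09. Insig1, which holds the sterol sensor in the endoplasmic reticulum, rose by 0.34 ± 0.08, squalene synthase Fdft1 by 0.30 ± 0.05 and the sterol reductase Tm7sf2 by 0.28 ± 0.05, while Nsdhl fell by 0.23 ± 0.05. Farnesyl diphosphate synthase Fdps had a difference of 0.26 ± 0.09 that was not called with all arrays. In fatty acid synthesis 3 of 19 rose and 1 fell, and 2 rose and none fell without the array that stood apart. Srebf1, the transcription factor of lipid synthesis, rose by 0.45 ± 0.07 and the desaturase Fads1 by 0.32 ± 0.08. Of 46 respiratory chain genes 6 rose and none fell, all by less than 0.12, with Cyc1 the largest called at 0.11 ± 0.03, and 3 rose without the array that stood apart. None of 7 genes of ketone body synthesis and use was called, and the receptor and coregulator list, which holds the PPAR and RXR genes themselves, had none of 16 called with all arrays and 1 higher without the array that stood apart. At an unadjusted p under 0.05 limma found with all arrays 0 genes in the ketone list and 2 in the receptor list, the coactivator Crebbp at -0.20 ± 0.08 and the partner receptor Rxrb at 0.17 ± 0.07.

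**Figure D3:**
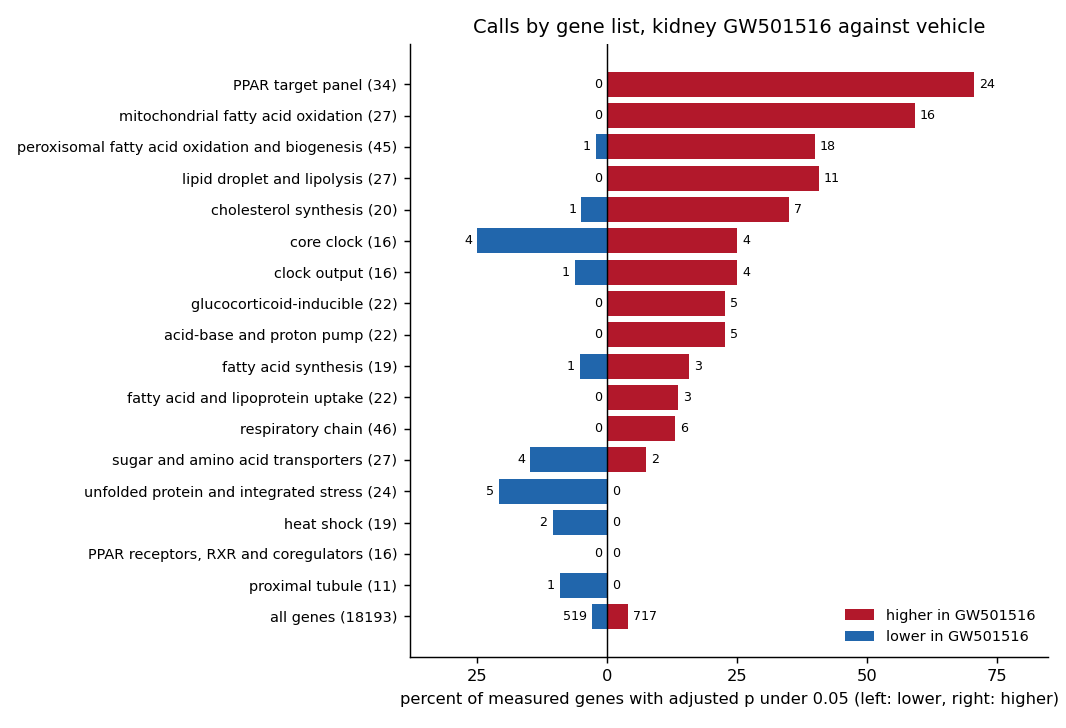
Percent of the measured genes of each list with adjusted p under 0.05, higher (right, red) or lower (left, blue) in GW501516 kidneys, with counts at the bar ends and the number measured in parentheses. The PPAR panel had 24 of 34 genes higher, the core clock 4 higher and 4 lower, and all 18193 genes 717 higher and 519 lower.

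With 2 principal components of the core clock genes as covariates and without the array that stood apart, 0.945% of all genes were higher and 1.34% lower. The components were made from core clock genes, of which 4 of 16 rose and 4 fell against vehicle. This fit can therefore remove part of the GW501516 difference itself, and a call lost in it does not show a cause. In that fit 20 of the 24 panel genes remained higher and none was gained, and Acot4, Plin2, Mogat1 and Fabp1 were not called. Mitochondrial oxidation had 16 of 27 genes higher, peroxisomal oxidation 15 of 45 and cholesterol synthesis 7 of 20, with none lower. In it 4 of 27 lipid droplet genes, none of 46 respiratory chain genes and 1 of 19 fatty acid synthesis genes were higher, and 1 acid-base gene was higher and 1 lower. None of the 21 mineral handling genes was called in that fit, and 1 of the 27 sugar and amino acid transporters was higher with none lower.

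Outside lipid metabolism the acid-base list was led by Atp12a. The list is read against the 3.94% of all genes higher and 2.85% lower. Of 22 measured genes of acid-base transport 5 rose and none fell, but the other 4 rises were under 0.25, among them Slc4a9, an anion exchanger of intercalated cells (0.23 ± 0.07, lost in 7 of 45 fits that left out 1 array), and Atp6v1b1, a proton pump subunit of the same cells (0.19 ± 0.05). The gastric relative Atp4a was not called, at 0.23 ± 0.28, nor was Foxi1, the transcription factor of intercalated cells, at -0.25 ± 0.08. The 7 measured markers of intercalated cells had a mean level of 7.85 to 8.72 in GW501516 kidneys and 7.98 to 8.49 in vehicle kidneys.

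Cyp27b1 led the mineral handling list, in which 3 of 21 genes rose and 1 fell (4 and 1 without the array that stood apart). The gene that fell was Cldn19, a tight junction protein of the thick ascending limb needed for magnesium and calcium uptake, at -0.42 ± 0.10. The calcium binding protein Pvalb rose by 0.22 ± 0.06, a call that ended without the array that stood apart (adjusted p = 0.075), and the magnesium channel Trpm6 was not called at 0.27 ± 0.10. Among 27 sugar and amino acid transporters 2 rose and 4 fell, against 3 and 1 without the array that stood apart. The dicarboxylate carrier Slc13a2 rose by 0.40 ± 0.07 and the neutral amino acid transporter Slc6a18 fell by 0.30 ± 0.07. In the retinoid and aldehyde list 2 of 30 rose and 1 fell, against 5 and 2 without that array. The mineral, transporter and retinoid lists are read against the 3.94% of all genes higher and 2.85% lower (4.5% and 2.89% without that array). Retinol saturase Retsat rose by 0.70 ± 0.07 and the retinol dehydrogenase Rdh10 fell by 0.34 ± 0.05, lower on all 15 treated arrays.

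The largest falls were smaller than the largest rises. By the same rule they belonged to Hspa1a, Bcl6b, Noxred1, Lrp12, Zmym1, Zfp185, Naip2, Nt5e, Rbm12b1 and Fbxo30. Hspa1a, the inducible form of the chaperone Hsp70, read 3.42, 3.04, 3.58, 3.51 and 3.75 in GW501516 kidneys on day 4, 3.62, 3.78, 4.09, 4.35 and 3.81 on day 8 and 5.15, 4.15, 4.44, 4.65 and 4.21 on day 15. Vehicle kidneys spanned 3.08 to 7.57 with a median of 5.09 on day 4, 3.39 to 6.88 with a median of 4.03 on day 8 and 4.21 to 6.90 with a median of 5.09 on day 15. Treated values lay in the lower part of a wide vehicle range, and the difference of -0.93 ± 0.30 (adjusted p = 0.0419) was lost in 17 of 45 fits that left out 1 array, with adjusted p = 0.0557 without the array that stood apart. Hspa1a and Noxred1 lay below percentile 40 of mean kidney level and were absent from the fit without dim genes.

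Nt5e, the ectoenzyme CD73 that makes adenosine from AMP, averaged 10.03 ± 0.34, 9.87 ± 0.24 and 9.98 ± 0.34 in GW501516 kidneys on days 4, 8 and 15, against 10.45 ± 0.23, 10.65 ± 0.24 and 10.51 ± 0.28 in vehicle kidneys. It fell by 0.58 ± 0.09, on all 15 treated arrays. Noxred1 fell by 0.69 ± 0.14 and Lrp12, a receptor of the LDL receptor family, fell by 0.68 ± 0.12. For the transcriptional repressor Bcl6b, day 8 replicate 1 read 4.55 and the other treated arrays 7.51 to 8.40, and the difference was -0.76 ± 0.13 with that array and -0.54 without it. The differences of Zmym1, Zfp185, Rbm12b1 and Fbxo30 without it were -0.45, -0.42, -0.36 and -0.41, all called, against -0.62, -0.61, -0.57 and -0.57 with it. Naip2, an inflammasome sensor, fell by 0.59 ± 0.14. Each of the 10 falls lost its call under at least 1 alternative. On days 4 and 15 alone 7 of the 10 were not called, and with clock components as covariates 8 were not called with all arrays and 3 (Zfp185, Naip2 and Nt5e) without the array that stood apart.

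Stress and immediate early lists are read against the 3.94% of all genes higher and 2.85% lower. Without the array that stood apart these shares were 4.5% and 2.89%. With clock components as well and without that array they were 0.945% and 1.34%. In the heat shock list 2 of 19 genes fell and none rose, Hspa1a and the Hsp40 cochaperone Dnajb1 (-0.46 ± 0.11, lower on all 15 treated arrays), and Hspa1b was not called at -0.53 ± 0.20. In the unfolded protein list 5 of 24 fell and none rose, each by less than 0.30, among them the endoplasmic reticulum disulfide isomerases Pdia4 (-0.28 ± 0.09) and Pdia3 (-0.22 ± 0.06). Without the array that stood apart, 1 heat shock gene and 4 unfolded protein genes were lower, and Pdia4 was not among the calls (adjusted p = 0.06). With clock components as covariates and without that array, 9 heat shock genes and 3 unfolded protein genes were lower. The Pdia4 call was lost in 22 of 45 fits that left out 1 array. Of 25 immediate early genes 2 rose and 2 fell (2 and 1 without the array that stood apart, 0 and 3 in the fit with clock components), with the growth factor binding protein Ccn1 at -0.71 ± 0.17 and the transcription factor Myc at 0.62 ± 0.12.

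Several genes of the circadian clock differed from vehicle. The clock is a loop in which Arntl, Clock and Npas2 switch on the Per, Cry and Nr1d genes, whose products then repress them. Of 16 measured core clock genes 4 rose (Cry1, Per2, Cry2 and Csnk1e) and 4 fell (Npas2, Arntl, Nr1d1 and Clock) on the mean of days. On that mean 3.94% of all genes rose and 2.85% fell. On day 4 limma called none of them at an adjusted p under 0.05 (0.17% of all genes were called). On day 8, 3 rose and 4 fell (3.88% and 5.49% of all genes), and on day 15, 2 rose and 1 fell (1.04% and 0.291% of all genes). Without the array that stood apart the day 8 count was 3 higher and 3 lower (0.456% and 0.297% of all genes).

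Cry1, a repressor of the loop, read 6.63, 6.29, 6.49, 7.25 and 6.73 in GW501516 kidneys on day 4, 7.30, 7.48, 7.30, 7.08 and 7.20 on day 8 and 7.06, 7.32, 7.44, 7.27 and 7.52 on day 15. Vehicle kidneys spanned 5.74 to 7.59 with a median of 6.62 on day 4, 4.87 to 5.93 with a median of 5.44 on day 8 and 4.87 to 6.31 with a median of 5.75 on day 15. The groups overlapped on day 4 and were apart on days 8 and 15. The difference was 0.03 ± 0.21 on day 4, 1.83 ± 0.21 on day 8 and 1.56 ± 0.21 on day 15. Npas2, an activator of the loop, averaged 5.02 ± 0.50, 4.73 ± 0.49 and 4.90 ± 0.54 in GW501516 kidneys, against 5.05 ± 0.48, 7.09 ± 0.67 and 6.40 ± 0.72 in vehicle kidneys on the same days (SD). Its differences were -0.03 ± 0.33, -2.36 ± 0.33 and -1.51 ± 0.33.

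For both genes the vehicle level itself moved between days by more than the treated level did. The vehicle means of Cry1 covered 5.44 to 6.65 and those of Npas2 5.05 to 7.09, while the GW501516 means covered 6.68 to 7.32 and 4.73 to 5.02. Arntl averaged 4.61 in GW501516 kidneys and 5.26 in vehicle kidneys over the 3 days, a difference of -0.65 ± 0.19, and Per2 rose by 0.44 ± 0.11. Of 16 clock output genes 4 rose and 1 fell (3.94% and 2.85% of all genes). Without the array that stood apart 5 rose and none fell (4.5% and 2.89% of all genes). Ciart, a repressor of the loop, rose by 0.56 ± 0.15 and the mitosis kinase Wee1 by 0.53 ± 0.08, while Dbp was not called at 0.36 ± 0.12. The clock components used as covariates were computed from the core clock genes themselves, so the values of those genes in that fit are no test of them. The hour of collection is not given in the labels, and its part in these differences was not tested.

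**Figure D4:**
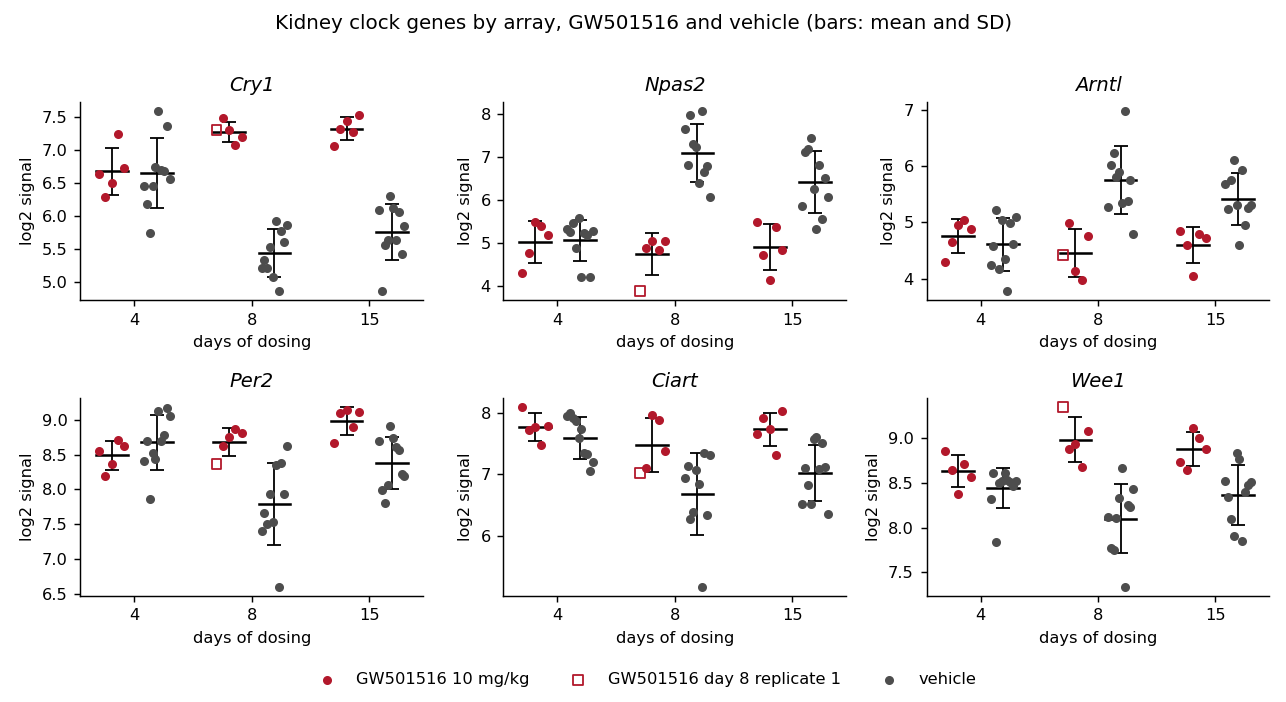
Log2 signal of 6 clock genes by days of dosing, 1 point per array, GW501516 left of vehicle, with mean and SD. Cry1 overlaps between groups on day 4 and separates on days 8 and 15, where the vehicle means of Cry1 are lower and those of Npas2 higher than on day 4.

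Clock activators bind E-boxes, spelled CACGTG, which read the same on both strands. Of 32 core clock and clock output genes 28 had a RefSeq window, with 41 windows in all. In 6 of these genes at least 1 window held the letters within 250 bases. Over all 32851 windows the rate was 6.02%, counted by window and not by gene. The windows of Cry1 at chr10:85185055-85185304 and Ciart at chr3:95882229-95882478, both on the minus strand of GRCm38.p6, are shown because both genes rose and Ciart held 3 copies. The E-box is in capitals.
Cry1: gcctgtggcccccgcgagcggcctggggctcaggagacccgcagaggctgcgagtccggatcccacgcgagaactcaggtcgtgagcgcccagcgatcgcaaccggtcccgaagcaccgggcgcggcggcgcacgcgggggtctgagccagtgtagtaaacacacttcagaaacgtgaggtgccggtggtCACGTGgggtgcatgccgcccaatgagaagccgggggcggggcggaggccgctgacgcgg
Ciart: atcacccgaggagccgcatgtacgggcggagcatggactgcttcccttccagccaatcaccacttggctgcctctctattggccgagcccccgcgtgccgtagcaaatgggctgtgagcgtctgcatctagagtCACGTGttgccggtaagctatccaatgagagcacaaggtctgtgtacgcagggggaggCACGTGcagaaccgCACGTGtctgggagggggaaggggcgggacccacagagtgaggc
The Cry1 copy ends 54 bases before the gene start, and the Ciart copies end 110, 52 and 38 bases before it.

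On day 4, 31 genes were called (0.17%), 29 higher (0.159%) and 2 lower (0.011%), and 14 of the 34 PPAR panel genes were higher. On day 15, 242 were called (1.33%), 189 higher (1.04%) and 53 lower (0.291%), and 19 panel genes were higher. On day 8, 1703 were called (9.36%), 705 higher (3.88%) and 998 lower (5.49%), with 17 panel genes higher and 1 lower. Without replicate 1 the day 8 count was 137 (0.753%), with 83 higher (0.456%) and 54 lower (0.297%), and 16 panel genes were higher and none lower. Without it the counts of the other days were 97 on day 4 (0.533%) and 731 on day 15 (4.02%). The panel median was 0.36 on day 4, 0.34 on day 8 and 0.43 on day 15, and 0.35 on day 8 without the array.

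The GW501516 effect itself differed between day 15 and day 4 for 2 genes (0.011%). The count was 0 with only GW501516 and vehicle arrays, and as low as 0 when 1 array was left out. Cry1 differed by 1.53 ± 0.29 (adjusted p = 0.0341) and Tll1, a secreted metalloprotease, by 1.01 ± 0.20 (adjusted p = 0.0423). Tll1 had differences from vehicle of -0.25, 0.38 and 0.76 in day order. For Cyp4a14 the difference between days was 1.05 ± 0.67 with a 95% interval of -0.28 to 2.38. Between day 8 and the mean of the other days limma called no gene (0%), with 3415 genes at an unadjusted p under 0.05. Without replicate 1 of day 8 no gene was called either, and 10 were called between days 15 and 4 (0.055%). Without replicate 4 of day 8, 802 genes were called between day 8 and the other days.

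At the same dose of 10 mg/kg and the same days, GW501516 and WY14643 differed for 244 genes (1.34%), 159 higher (0.874%) and 85 lower (0.467%) with GW501516. Without the array that stood apart 365 of 18193 genes differed, and 189 were called in the same direction both times. Differences between compounds are given below with all arrays. All 3 compounds shared the vehicle arrays, so each compound's difference from vehicle is given only side by side. Cyp4a14 rose by 3.78 with GW501516 and 5.76 with WY14643, a difference of -1.98 ± 0.31 (adjusted p = 7.11e-05). Atp12a ran the other way, at 1.88 with GW501516 and -0.53 ± 0.20 with WY14643, which was not called, and the difference between compounds was 2.41 ± 0.23 (adjusted p = 1.79e-11). Cpt1a rose by 0.35 with GW501516 and was not called with WY14643, at 0.03 ± 0.04, and the direct difference was 0.32 ± 0.04 (adjusted p = 2.06e-07).

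Within the panel 4 genes were higher with GW501516 than with WY14643 (Cpt1a, Creb3l3, Slc25a20 and Slc22a5) and 2 lower (Cyp4a14 and Acadm). Slc25a20 differed by 0.22 ± 0.06 and Slc22a5 by 0.20 ± 0.05. Acot1 did not pass the test, with a difference of 0.16 and a 95% interval of -0.20 to 0.52, nor did Mgll at 0.10 with an interval of -0.04 to 0.24. Outside the panel, the activin subunit Inhbb was higher with GW501516 by 1.02 ± 0.16 and the growth factor Fgf18 by 0.92 ± 0.18. The retinaldehyde dehydrogenase Aldh1a1 was lower with GW501516 than with WY14643, at a difference of -1.59 ± 0.38. So were the adaptor protein Shc3 at -0.92 ± 0.10 and the amino acid transporter Slc7a12 at -0.90 ± 0.22. Against vehicle, the GW501516 difference of Aldh1a1 ran from -0.02 to 0.57 over the alternative fits. That of Shc3 ran from -0.17 to -0.02 and that of Slc7a12 from -0.83 to -0.30. In the unfolded protein list 8 of 24 genes were lower with GW501516 than with WY14643 and none higher.

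Against rosiglitazone 203 genes differed (1.12%), 137 higher (0.753%) and 66 lower (0.363%) with GW501516. Without the array that stood apart 336 of 18193 genes differed, and 178 were called in the same direction both times. Of the 34 panel genes 16 were higher with GW501516 and none lower. Cyp4a14 was 4.00 ± 0.31 higher, Acot1 1.63 ± 0.18, Acot3 1.04 ± 0.22, Angptl4 0.76 ± 0.16, Cyp4a31 0.62 ± 0.14 and Vnn1 0.60 ± 0.09. Angptl4 rose with all 3 compounds, by 1.55 with GW501516, 1.14 with WY14643 and 0.79 with rosiglitazone. Atp12a was not called with rosiglitazone, at -0.35 ± 0.20, and its direct difference was 2.22 ± 0.23 (adjusted p = 1.24e-10).

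Among other genes, Cyp27b1 was higher with GW501516 than with rosiglitazone by 0.90 ± 0.23, Nt5dc2 by 0.89 ± 0.10 and the neutrophil calgranulin S100a9 by 1.14 ± 0.30. The kinase Cdk13 was lower than with rosiglitazone, at a difference of -0.92 ± 0.23, as was Klhl6 at -0.90 ± 0.13. Against vehicle, the GW501516 difference over the alternative fits ran from -1.67 to -0.22 for Cdk13 and from -0.04 to 0.11 for Klhl6. Fgf18, which set GW501516 apart from WY14643, did not pass against rosiglitazone, at -0.17 with a 95% interval of -0.53 to 0.19. Cry1 was called higher than vehicle with each compound, by 1.14 with GW501516, 0.46 with WY14643 and 1.67 with rosiglitazone.

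**Figure D5:**
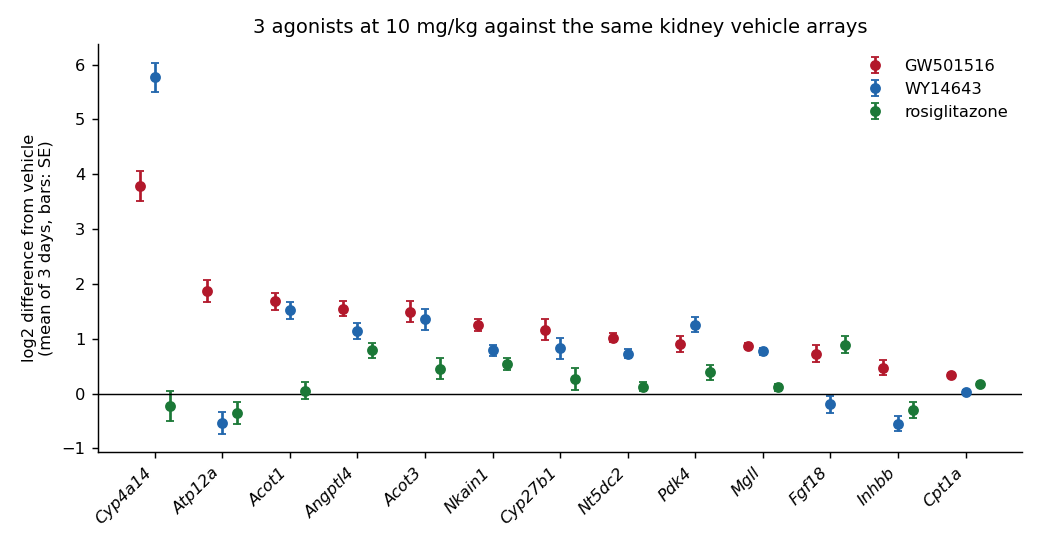
Log2 difference from vehicle kidneys, averaged over 3 days, for 13 genes with each of 3 agonists at 10 mg/kg (points, with SE as bars). Atp12a, a dim gene, lies above 0 with GW501516 and below 0 with both other compounds, where it was not called. Cyp4a14 is highest with WY14643.

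Lists of kidney injury and inflammation genes are read against the 6.79% of all genes called (7.39% without the array that stood apart). Of 27 complement and acute phase genes and 26 interferon and antigen presentation genes limma called none, with 1 gene of the complement list and 0 of the interferon list at an unadjusted p under 0.05. Of 21 tubular injury and repair genes 1 rose, Vcam1 at 0.35 ± 0.10 (adjusted p = 0.0768 without the array that stood apart), and without that array none rose and 1 fell. The injury marker Havcr1 was not called at -0.30 ± 0.24. Of 24 sodium transport genes limma called none with all arrays, with 3 higher and 3 lower at an unadjusted p under 0.05, and 5 were higher without the array that stood apart. Among 11 proximal tubule markers 1 fell, the amino acid transporter Slc7a13 at -0.19 ± 0.06, and it was not called without that array (adjusted p = 0.0731).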

How the data were processed

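Kidney RNA of single mice was hybridised to 1-colour expression arrays after biotin labelling of amplified cDNA, per the labels' protocols. The deposited values are log2 intensities normalized with RMA, and Partek is also named, per the submitters' processing notes. Which arrays were normalized together is not given in the sources used here. The table held 300 arrays and 45101 probe sets, of which 64 controls were left out. A single gene was named for 34945 probe sets, 932 had several and 9160 none. Names came from the platform annotation, updated through the gene ID to RefSeq for 34741 probe sets. Each of 18193 genes was read from 1 probe set, the brightest on average across the 300 arrays.

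A linear model with 12 kidney groups and 75 arrays (63 residual degrees of freedom) was fitted with limma 3.58.1 (lmFit, eBayes with an intensity trend) in R 4.3.3, and p-values were adjusted by Benjamini-Hochberg over all genes, with a threshold of 0.05. The main contrast was the mean of the 3 same-day differences. The labels give a different mouse for every array, so p-values measure the spread between these mice, and the number of arrays limits the precision. Data were also simulated for the same layout of arrays, with independent normal noise at each gene's residual spread and an equal shift on each day. There 80% of 50 genes changed 1.25-fold and 100% of those changed 1.5-fold were recovered for the mean of days, against 30% and 68% for day 4. The simulation held no array that stood apart and no shift shared between genes, so its rates apply to that setting alone.

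Named genes were the 10 largest rises and falls that held on 14 or more of the 15 GW501516 arrays, all panel genes, up to 4 genes with the largest change and called genes of opposite sign for each list, and the largest differences between days and compounds. The members and lists were chosen with earlier results of these data known. Alternatives covered the eBayes setting, the arrays in the fit, dim genes (below percentile 40), probe set choice, normalization, array weights, the replicate number, leaving out arrays or day 8, and clock gene components. Replicate numbers were not treated as pairs, since the labels give a different mouse for every kidney array. Of 15 same-numbered pairs 4 correlated above 0.1 (from -0.222 to 0.294), which cannot tell whether arrays of the same number were handled together.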

Additional observations from a re-analysis of the deposited data

Results flagged for a closer look

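The 10 largest rises, the 10 largest falls and the interquartile range of the arrays were tested for single far arrays, and other named genes, Slc27a1 among them, were not. Of 126 groups of 4 to 10 arrays tested, 12 held an array far from the rest of its group by Dixon's test, and chance alone marks about 1 in 20 groups. Of the 12 far arrays 7 were GW501516 day 8 replicate 1. Its interquartile range was 3.81, and it read 10.85 for the thioesterase Acot1, 4.55 for Bcl6b, 4.00 for Zmym1, 4.09 for Zfp185, 3.60 for Rbm12b1 and 5.51 for Fbxo30. Acot1 was thus higher on it than on the other day 8 arrays, and the 5 genes among the largest falls were lower on it. The rises and falls were ranked with this array included, which favours genes far out on it. The rate of 1 in 20 therefore does not apply to this array among those genes.

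Other far arrays were single values. GW501516 day 15 replicate 1 read 4.31 for the proton-potassium pump Atp12a, below the other treated arrays of that day, and GW501516 day 8 replicate 2 read 7.77 for Nkain1. GW501516 day 15 replicate 4 read 10.49 for Acot1. Vehicle day 4 replicate 10 read 9.42 for Lrp12, and vehicle day 15 replicate 4 read 6.56 for Rbm12b1.

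The effect of GW501516 differed between days for the clock repressor Cry1, by 1.53 on the log2 scale for day 15 minus day 4, and for the metalloprotease Tll1, by 1.01, both by the limma test of that difference (adjusted p = 0.0341 and 0.0423). Neither gene was called with only GW501516 and vehicle arrays, nor in some of the fits that left out 1 array.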

How the results depend on the processing

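The number of PPAR panel genes called higher for the mean over days was between 19 and 25 under every alternative run. The count of 1236 called genes was 756 with only GW501516 and vehicle arrays, 409 with the replicate block, 321 for days 4 and 15 alone, 333 with clock components as covariates and 416 with these and without GW501516 day 8 replicate 1. Whether a replicate number stands for shared handling was not tested. With the replicate block the count was 555 on day 8, 156 on day 15 and 5 between days 15 and 4. On day 4 it was 49 without dim genes, 135 with array weights (130 without the day 8 array), and 61 with clock components (101 without it). On day 8 it was 245 with only GW501516 and vehicle arrays, 240 with array weights (243 without replicate 1), and 0 with clock components (37 without it). On day 15 it was 1540 with array weights (1535 without the day 8 array) and 400 with clock components. Between days 15 and 4 it was 0 with only GW501516 and vehicle arrays and with clock components (0 without the day 8 array too), 1 without dim genes, with quantile normalization or with equal medians, 21 with array weights (22 without the array) and 4 with the probe set of highest kidney mean. Against WY14643 it was 574 with array weights (580 without the array), 127 for days 4 and 15 alone, and 153 with clock components (155 without the array). Against rosiglitazone it was 539 with array weights (565 without the array), 76 for days 4 and 15 alone, and 3228 with clock components (183 without the array). The cause was not tested. Chosen after seeing the data were the alternatives that combine leaving out the array with another change, the kidney probe set, and the panel counts under all alternatives.

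Leaving out 1 array at a time gave 873 to 1752 genes for the mean, 17 to 97 for day 4, 137 to 3621 for day 8, 99 to 731 for day 15, 0 to 10 between days 15 and 4, 0 to 802 between day 8 and the other days, 149 to 540 against WY14643, 145 to 336 against rosiglitazone, and 23 to 25 panel genes higher. The counts moved by over 1.5 times without GW501516 day 8 replicate 1 (97 on day 4, 137 on day 8, 731 on day 15, 10 between days 15 and 4, 336 against rosiglitazone), without day 4 replicate 1 (17 on day 4, 149 against WY14643), and without day 15 replicates 1, 3 and 5 (505, 133 and 99 on day 15). Without day 8 replicates 2, 3, 4 and 5 the day 8 count was 3579, 3621, 3439 and 3185. Against WY14643 it was 415 and 151 without day 15 replicates 1 and 5, and 540, 372 and 377 without day 8 replicates 2, 3 and 5. Against rosiglitazone it was 316 and 332 without day 8 replicates 3 and 5. The clock components were made from the core clock genes, so the values of Arntl and Per2 under them are no test of these genes. With clock components the sign turned for Mpv17l (0.072), Nsdhl (0.028), Atp6v1b1 (-0.047), Pdia3 (0.015), Arntl (0.036, and 0.11 without the array), Per2 (-0.30, and -0.29 without it), Vcam1 (-0.12) and Slc7a13 (0.0092), and for Ciart (-0.063) without the array.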

Other observations

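Of 22 measured glucocorticoid-inducible genes 5 rose and none fell (3.94% and 2.85% of all genes). With clock gene components as covariates and without GW501516 day 8 replicate 1, 2 rose and 1 fell (0.945% and 1.34% of all genes). The transcription factor Zbtb16 had the largest difference outside Angptl4, at 1.01 ± 0.22 (adjusted p = 0.00151), and its differences were -0.21 ± 0.38 on day 4, 2.04 ± 0.38 on day 8 and 1.20 ± 0.38 on day 15. Zbtb16 averaged 5.57 ± 0.39, 6.44 ± 0.55 and 6.72 ± 0.59 in GW501516 kidneys on days 4, 8 and 15, against 5.77 ± 0.56, 4.40 ± 0.47 and 5.53 ± 1.21 in vehicle kidneys (SD). Its call was lost in 3 of 14 alternatives, at 0.49 on days 4 and 15 alone (limma adjusted p = 0.45), 0.27 with clock components (0.688) and 0.20 with these and without that array (0.851). The list shares Angptl4 and Pdk4 with the PPAR panel.

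Metabolic lists of other kinds are read against the 3.94% of all genes higher and 2.85% lower (4.5% and 2.89% without GW501516 day 8 replicate 1). Of 30 xenobiotic P450 genes 3 rose, of 37 conjugation and antioxidant genes 3 rose and 3 fell, and of 41 genes of amino acid and urea metabolism none rose and 2 fell (3 and 2 without GW501516 day 8 replicate 1). Of 25 organic ion and drug transporters 2 rose and 2 fell (2 and none without that array), and of 12 androgen-responsive kidney genes 1 fell with all arrays and 1 rose without that array.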
